A study of Mus musculus with 9 samples.

Results

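Müller glia are the radial glial cells that span the retina, and 10 genes of their housekeeping work were followed here by gene symbol among the 55414 genes of the table. They are Slc1a3 and Glul (glutamate uptake and its conversion to glutamine), Rlbp1 (retinoid binding), Car14, Car2 and Aqp4 (pH and water), Abca8a and Apoe (lipid transport), Dkk3 (a secreted glycoprotein) and Sox9 (a glial transcription factor). All 10 were present once in the table and all 10 passed the filter on low counts. The retinas came from Balb/c mice, an albino strain, in 3 groups of 3 libraries: light damage with A74, light damage, and control. The labels give no age, light exposure, vehicle or dose, do not spell out what A74 is, and do not say whether each library is 1 animal. The p-values therefore refer to the variation among these 9 libraries, part of which may be technical. The series title names inhibition of P2RX7, an ATP-gated channel, and the design text asks how A74 protects the retina. The group called control carries no further description of handling or injection.

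In the retina, Müller cells clear glutamate from synapses through the transporter GLAST (Slc1a3), turn it into glutamine with glutamine synthetase (Glul), and return the glutamine to neurons. They bind 11-cis-retinoids for cone vision through CRALBP (Rlbp1), hydrate carbon dioxide with carbonic anhydrases, and move water through aquaporin 4 at their endfeet. They also supply lipid in apolipoprotein E particles, and Sox9 maintains their identity. After injury these cells become reactive, a state in which structural and homeostatic genes can change apart from each other.

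Sequences before the start of transcription that RefSeq gives are shown for 4 members, because Slc1a3 and Rlbp1 rose after light damage while Glul and Abca8a did not pass the test. RefSeq promoter windows (build GRCm38.p6, the build of that table, whereas the submitters' processing notes name GRCm39 for the counts) were matched by symbol for 6 members. Each line holds the 250 bases before the start, 5′ to 3′ on the strand of the gene. Capitals mark matches, on either strand, to any of 6 patterns. These were TTCNNNGAA for STAT factors. For SOX factors they were ACAAAG and ACAATG. For AP-1 the pattern was TGANTCA. The CCAAT box was read as CCAAT. The GC box was read as GGGCGG. The windows are chr15:8710808-8711057 on the minus strand for Slc1a3, chr7:79387028-79387277 on the minus strand for Rlbp1, chr1:153899679-153899928 on the plus strand for Glul and chr11:110095938-110096187 on the minus strand for Abca8a.
Slc1a3: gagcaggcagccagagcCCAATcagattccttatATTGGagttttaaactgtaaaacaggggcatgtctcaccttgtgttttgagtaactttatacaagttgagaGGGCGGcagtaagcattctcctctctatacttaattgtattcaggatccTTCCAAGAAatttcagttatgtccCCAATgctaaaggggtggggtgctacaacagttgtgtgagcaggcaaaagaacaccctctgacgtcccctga
Rlbp1: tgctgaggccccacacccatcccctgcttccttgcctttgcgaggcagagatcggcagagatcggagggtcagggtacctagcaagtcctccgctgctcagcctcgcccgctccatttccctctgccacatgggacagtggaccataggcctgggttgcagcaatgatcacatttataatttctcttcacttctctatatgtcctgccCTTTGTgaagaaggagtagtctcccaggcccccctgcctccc
Glul: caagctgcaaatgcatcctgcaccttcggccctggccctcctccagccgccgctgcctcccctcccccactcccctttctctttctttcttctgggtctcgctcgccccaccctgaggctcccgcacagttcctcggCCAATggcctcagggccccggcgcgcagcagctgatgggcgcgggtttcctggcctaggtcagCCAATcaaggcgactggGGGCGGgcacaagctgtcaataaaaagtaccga
Abca8a: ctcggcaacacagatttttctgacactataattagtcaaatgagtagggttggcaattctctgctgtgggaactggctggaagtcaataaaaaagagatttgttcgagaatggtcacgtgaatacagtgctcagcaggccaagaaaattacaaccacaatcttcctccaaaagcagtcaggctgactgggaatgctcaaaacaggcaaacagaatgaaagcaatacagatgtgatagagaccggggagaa

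The Slc1a3 window held 1 STAT-type match, 96 bases before the start, a pattern found in 7.02% of all 32851 RefSeq windows of this length. It also held CCAAT at 233, 216 (opposite strand) and 72 bases and GGGCGG at 145 bases before the start. The Rlbp1 window held ACAAAG on the opposite strand 42 bases before the start, a pattern in 16.5% of windows. The Glul window held no STAT, SOX or AP-1 match, with CCAAT at 113 and 50 bases and GGGCGG at 33 bases before the start. The Abca8a and Car14 windows held none of the 6 patterns. Apoe, which also rose, had 3 windows. The window at chr7:19699189-19699438 held ACAATG 144 bases and ACAAAG, on the opposite strand, 54 bases before the start. The other Apoe windows held no match. The pattern TGANTCA occurred in 0 of the 8 windows of these 6 members, against 6.75% of all windows, and 8 windows are too few to compare with that share. CCAAT was found in 33.8% of all windows, GGGCGG in 32.7% and ACAATG in 10.7%. The bases after the RefSeq start opened a GENCODE transcript of the gene for Abca8a, lay within one for Rlbp1 and were found in none for Slc1a3 and Glul, so the distances hold for the RefSeq start only. A match is a description of letters and does not show that a factor binds.

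Library totals ran from 14787972 to 18740434 counts. Rod markers were summed over 8 genes, in CPM (normalised read counts, relative to the TMM-adjusted library total). They were at 27500 to 41100 CPM in light damage libraries, 48100 to 51400 CPM in A74 libraries and 50400 to 55000 CPM in controls. Of these 8 genes, 6 fell in light damage against control, and 7 were higher with A74 than in light damage. Y-linked transcripts were present in replicates 1 and 2 of light damage and control and at 0 in the other 5 libraries, among them all 3 A74 libraries. The 8 genes listed for anterior eye tissue were high in 5 libraries, A74 replicate 1 and replicates 1 and 2 of light damage and control, with sums of at least 138 CPM. Their sums were at most 15.9 CPM in the remaining 4 libraries. Values within these 2 sets are drawn for all 10 genes in the plot of scalings and sets. Some arms of a set hold 1 library, which the fit assumes to vary like the others, and the sets were defined from the data. In bulk RNA, a larger share of Müller cells and more RNA of a gene per cell cannot be told apart.

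Light damage was compared with control to ask how the housekeeping genes of Müller glia respond to injury. Slc1a3, Rlbp1, Car14, Aqp4, Dkk3, Sox9 and Apoe rose, by 0.43 to 0.91 on the log2 scale, and in each of these 7 genes every light damage library lay above every control library. Glul, Car2 and Abca8a did not pass the test. With A74, the 7 genes that rose were lower than in light damage alone, Abca8a was slightly higher, and Glul and Car2 did not pass the test. No member passed the test between A74 with light damage and control. No change of a member reached 2-fold. Changes of at least 2-fold were called for 3.56% of all genes in light damage against control (2.79% higher, 0.770% lower), for 2.78% in A74 with light damage against light damage (0.353% higher, 2.43% lower) and for 0.0926% in A74 with light damage against control (0.0579% higher, 0.0347% lower).

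Of all 17272 genes tested, edgeR's quasi-likelihood test (Benjamini-Hochberg adjustment) called 25.8% in light damage against control, 13.0% higher and 12.8% lower. Of the 10 members, 7 were called higher and 0 lower, with a median log2 fold change of 0.51 against 0.01 over all genes tested. In A74 with light damage against light damage, 18.3% of genes were called, 9.07% higher and 9.19% lower. There, 7 members were called lower and 1 higher, with a median of -0.58 against 0.00 over all genes. Non-overlapping groups are frequent in these data: 20.6% of all genes had every light damage library above every control library and 20.0% every one below, 40.6% together. Every A74 library lay below every light damage library for 17.7% of genes and above for 17.5%, 35.2% together. Leaving out light damage replicate 2 lowered the first share of calls to 16%, and leaving out light damage replicate 1 lowered the second to 9.78%, with 7 members called higher and 7 called lower in those fits.

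**Figure D1:**
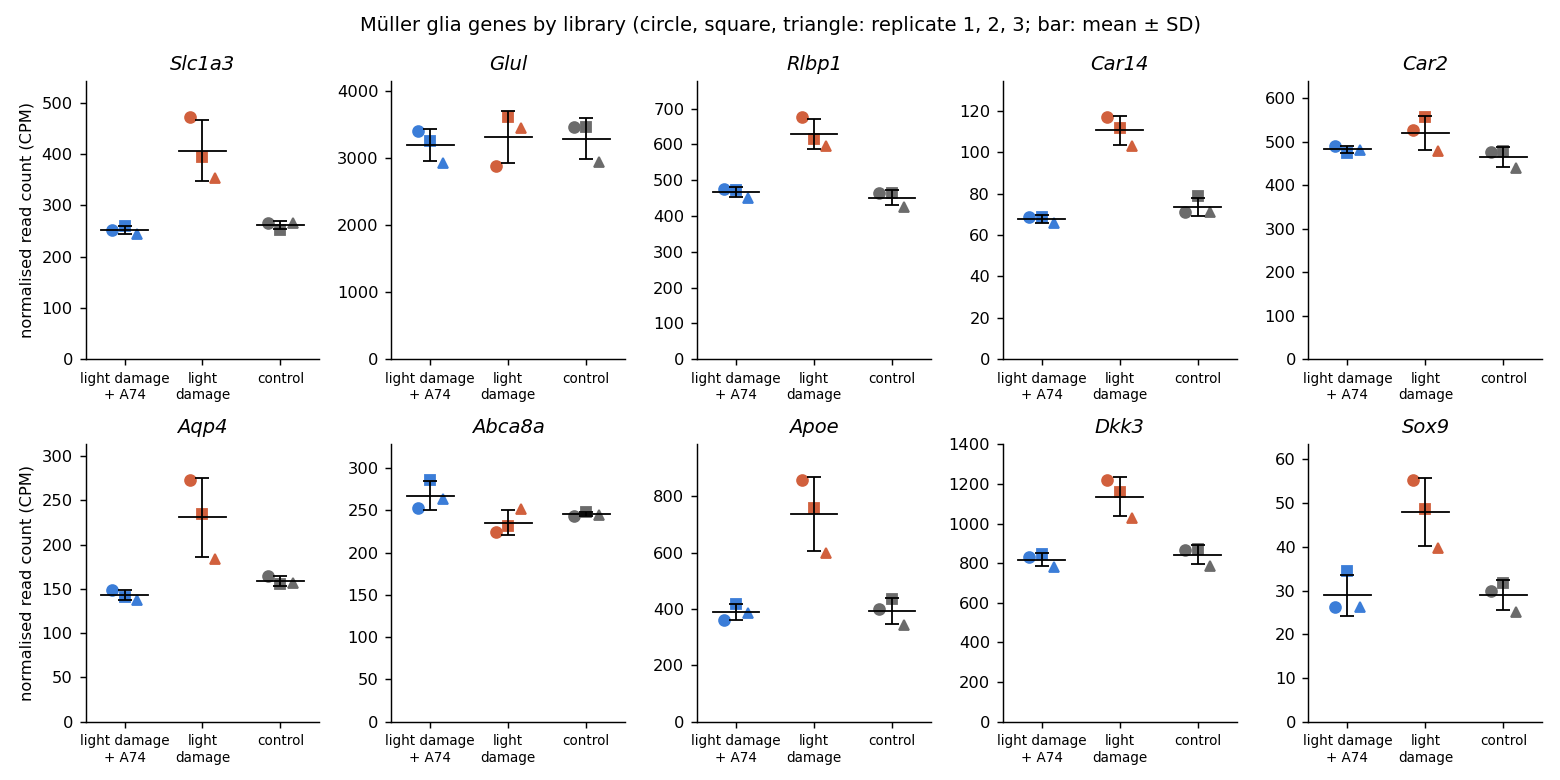
Normalised read count (CPM) of each of the 10 genes in the 9 libraries, with light damage and A74, light damage, and control from left to right; symbols give the replicate, and the bar the mean with its SD. For Slc1a3, the light damage libraries lie at 354 to 472 CPM, above all A74 and control libraries, while for Glul the 3 groups overlap.

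Slc1a3 encodes the transporter that takes up glutamate and aspartate into Müller cells. It had 251, 260 and 245 CPM in A74 libraries, 472, 394 and 354 CPM in light damage libraries, and 266, 252 and 265 CPM in control libraries (replicates 1, 2 and 3). The light damage group stood apart from both others, which overlapped. Slc1a3 rose 1.56-fold in light damage (log2 fold change 0.64, SE 0.083, edgeR adjusted p = 9.5e-05). With A74 it was 0.619 times the light damage level (log2 -0.69, edgeR adjusted p = 0.000114). Against control, A74 with light damage gave -0.05 with a 95% interval from -0.23 to 0.12 (edgeR adjusted p = 0.808). Within the set of libraries with less anterior RNA, 1 light damage against 1 control library, the log2 fold change was 0.41, and in the other set, 2 against 2, it was 0.74. With A74 relative to light damage it was -0.49 in the set with less anterior RNA and -0.79 in the other. Neither of these differences between the sets was called for Slc1a3.

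Glul, which encodes the enzyme that joins ammonia to glutamate, behaved differently. It was at 3400, 3250 and 2930 CPM in A74 libraries, 2880, 3610 and 3450 CPM in light damage libraries, and 3470, 3460 and 2940 CPM in controls. The 3 groups overlapped, and the lowest library of all was light damage replicate 1, the library with the highest Slc1a3. Light damage against control gave 0.01 on the log2 scale with a 95% interval from -0.20 to 0.23 (edgeR adjusted p = 0.947). A74 with light damage gave -0.05 against light damage, with an interval from -0.27 to 0.16 (edgeR adjusted p = 0.751). The sign of both values turned under other scalings or without single libraries. Within the set with less anterior RNA, Glul was at 0.23 in light damage against control and at -0.16 with A74 relative to light damage, and in the other set at -0.09 and 0.06.

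Because a ratio of genes in the same library does not depend on the scaling, each member was also set against Glul. Slc1a3 counts were 0.0738, 0.0801 and 0.0835 of Glul counts in A74 libraries, 0.164, 0.109 and 0.102 in light damage libraries, and 0.0768, 0.0729 and 0.0904 in controls. Every light damage library was above every other library. In light damage against control, this ratio was higher without overlap for 6 of 9 members, all of those called except Aqp4, and for 11.4% of all other genes tested. Aqp4 counts were 0.0534 of Glul counts in light damage replicate 3 and 0.0536 in control replicate 3. In A74 with light damage against light damage, the ratio was lower without overlap for 7 of 9 members, and for 7.87% of all other genes. These ratios were not tested, and they show unequal change, not that Glul was constant.

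**Figure D2:**
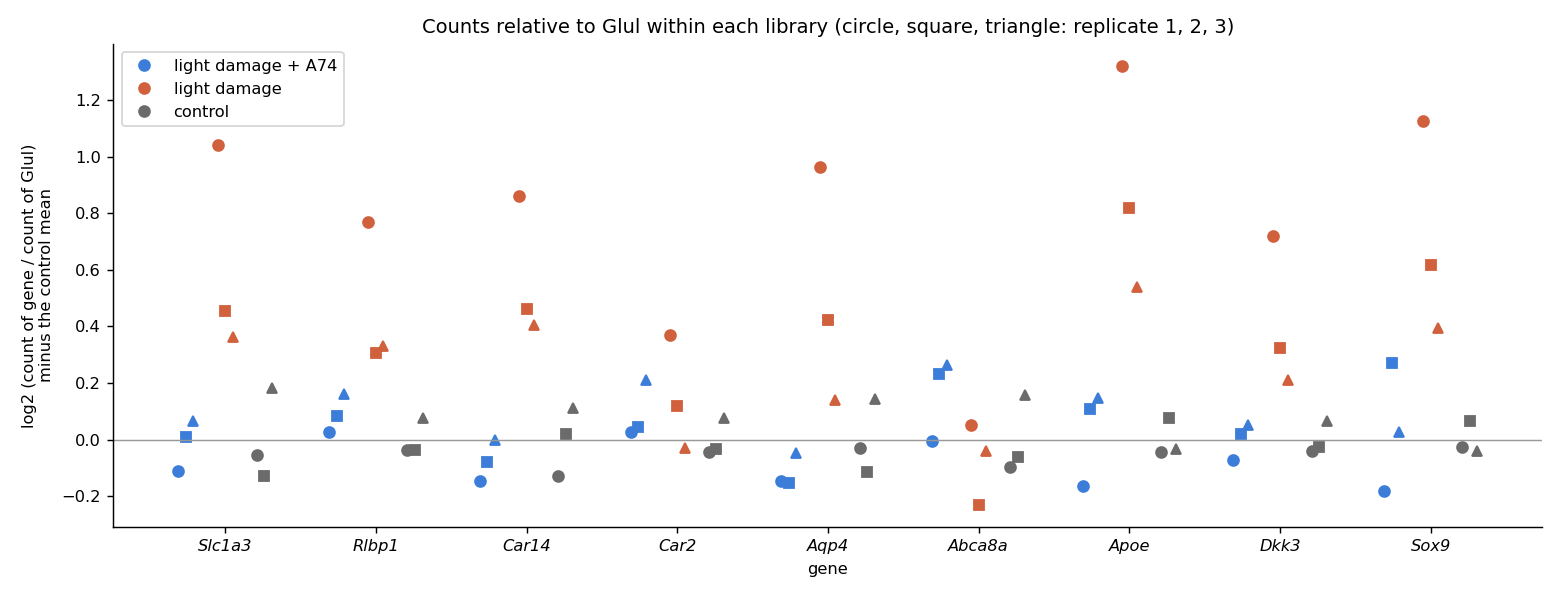
Log2 of each gene's count over the count of Glul in the same library, less the mean of the 3 control libraries, on the y axis; colours give the group and symbols the replicate. Light damage libraries lie highest for Slc1a3, Rlbp1, Car14, Dkk3, Sox9 and Apoe, and light damage replicate 1 is the highest of them.

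Other genes of glutamate, glutamine and GABA handling moved in both directions. Of 8 tested, 2 rose and 3 fell in light damage, and 1 rose and 2 fell with A74 relative to light damage. Glud1, the glutamate dehydrogenase gene, was at 111 ± 0.6 CPM with A74, 126 ± 6.77 CPM in light damage and 104 ± 3.58 CPM in control (SD, n = 3 each), and rose by 0.26 in light damage (edgeR adjusted p = 0.00256). Slc6a11, a GABA transporter gene, rose by 0.23 (edgeR adjusted p = 0.00693). Slc38a3, which encodes a glutamine transporter of Müller cells, was at 431 ± 39.2 CPM with A74 and 359 ± 27.5 CPM in light damage (SD, n = 3 each), higher by 0.26 with A74 (edgeR adjusted p = 0.0204). It fell by 0.28 in light damage (edgeR adjusted p = 0.0102).

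Rlbp1 encodes CRALBP, which binds 11-cis-retinal and its alcohol in Müller glia and pigment epithelium. It had 476, 473 and 451 CPM in A74 libraries, 676, 615 and 597 CPM in light damage libraries, and 465, 464 and 426 CPM in controls. All light damage libraries were above all others. Rlbp1 rose 1.39-fold in light damage (log2 0.48, SE 0.068, edgeR adjusted p = 0.000142) and fell by 0.43 with A74 relative to light damage (edgeR adjusted p = 0.000644). Its light response was alike in both sets of libraries, at 0.48 in the set with more anterior RNA and 0.49 in the other. With libraries scaled on inner retinal neuron markers, the log2 fold change with A74 relative to light damage was -0.26. Pigment epithelium markers, which could come with this gene, summed to 28.7 to 50.6 CPM with A74, 67.9 to 90.5 CPM in light damage and 24.4 to 139 CPM in control. None of the 7 tested markers was called in light damage against control and 1 fell with A74 relative to light damage, and their part in the Rlbp1 values was not tested.

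Of 8 other retinoid genes, 3 rose and 1 fell in light damage, and 2 rose and 2 fell with A74 relative to light damage. Rdh10, a retinol dehydrogenase gene, rose by 0.35 (edgeR adjusted p = 0.0032), and Degs1, proposed as a retinoid isomerase of Müller cells, by 0.21 (edgeR adjusted p = 0.0229). Rdh11, a dehydrogenase of photoreceptors, was higher by 0.44 with A74 than in light damage alone (edgeR adjusted p = 0.00195).

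The carbonic anhydrase genes split. Car14 encodes a membrane-bound enzyme that faces the extracellular space, and had 68.9, 68.9 and 65.7 CPM in A74 libraries, 117, 112 and 103 CPM in light damage libraries, and 71.1, 78.7 and 71.3 CPM in controls. Light damage libraries stood above all others, and the A74 libraries stood below all controls. Car14 had the smallest adjusted p of the 10 genes in both comparisons with light damage. It rose 1.5-fold in light damage (log2 0.59, SE 0.064, edgeR adjusted p = 2.05e-05) and fell by 0.70 with A74 (edgeR adjusted p = 9.54e-06). Against control, A74 with light damage gave -0.12, with an interval from -0.26 to 0.02 (edgeR adjusted p = 0.393).

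Car2 encodes the cytosolic enzyme, which other retinal cells, oligodendrocytes and red blood cells also make. It was at 491, 474 and 481 CPM in A74 libraries, 527, 556 and 478 CPM in light damage libraries, and 477, 479 and 439 CPM in controls. Light damage replicate 3 lay within the range of the other groups. Car2 had a log2 fold change of 0.16 in light damage, with an interval from 0.02 to 0.31 that is not adjusted for the number of genes (edgeR adjusted p = 0.0914). With A74 the log2 fold change was -0.11 relative to light damage, with an interval from -0.26 to 0.03 (edgeR adjusted p = 0.28). Without light damage replicate 3 the rise in light damage was called, at 0.22 (edgeR adjusted p = 0.0124). Red blood cell markers summed to 17.9 to 20.9 CPM with A74, 15.7 to 27.2 CPM in light damage and 9.77 to 19.4 CPM in control, with 4 of 6 tested and none called, and their part in Car2 was not tested.

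Aqp4 encodes the water channel of Müller endfeet and astrocytes. It was at 149, 141 and 138 CPM in A74 libraries, 273, 235 and 184 CPM in light damage libraries, and 165, 155 and 157 CPM in controls. The light damage libraries were above all others but spread widely, with an SD of 19.3% of their mean, the largest among the 10 genes. Aqp4 rose 1.45-fold (log2 0.54, SE 0.117, edgeR adjusted p = 0.00876) and fell by 0.69 with A74 relative to light damage (edgeR adjusted p = 0.00434). In the set of libraries with less anterior RNA the log2 fold change was 0.23 and was not called, with 1 library against 1 (edgeR adjusted p = 0.174), and in the other set 0.67. With A74 relative to light damage, the log2 fold change of Aqp4 was -0.40 in the set with less anterior RNA and -0.77 in the other. The difference between the sets in the response to light was 0.44 and did not pass the test (SE 0.12, edgeR adjusted p = 0.0607).

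Astrocytes share Aqp4, Slc1a3 and Sox9 with Müller glia. The astrocyte list summed to 50.1 to 55.9 CPM with A74, 106 to 205 CPM in light damage and 56.9 to 61.7 CPM in control, and 3 of its 5 genes rose in light damage. The log2 fold changes were 2.17 for Gfap (edgeR adjusted p = 0.00588), 1.28 for Aldh1l1 (edgeR adjusted p = 1.54e-05) and 0.47 for Pdgfra (edgeR adjusted p = 0.0344). Of these genes, reactive Müller glia also make Gfap. S100b was at -0.08 and was not called. Pax2, which marks retinal astrocytes and not Müller glia, was scarce, and averaged 0.785 CPM with A74, 0.962 CPM in light damage and 0.803 CPM in control. Its log2 fold change in light damage was 0.28 and imprecise (SE 0.4, edgeR adjusted p = 0.653). The part of astrocytes in the Aqp4, Slc1a3 and Sox9 values was not tested.

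Of 18 other genes of potassium, water and pH handling, 17 were tested, and 5 rose and 4 fell in light damage while 4 rose and 6 fell with A74 relative to light damage. Kcnj10 encodes the potassium channel through which Müller cells buffer potassium. It was at 107 ± 2.69 CPM with A74, 151 ± 22.8 CPM in light damage and 107 ± 1.9 CPM in control (SD, n = 3 each), and rose by 0.49 in light damage (edgeR adjusted p = 0.000594). Mlc1, a membrane protein gene of glial endfeet, rose by 0.69 (edgeR adjusted p = 0.000447) and fell by 0.75 with A74 (edgeR adjusted p = 0.000531). Dmd, the dystrophin gene, whose products anchor these channels at endfeet and also lie in photoreceptor terminals, went the other way, at 133 ± 8.1 CPM with A74, 99.0 ± 4.92 CPM in light damage and 162 ± 14.7 CPM in control (SD, n = 3 each). Its fall in light damage was 0.71 (edgeR adjusted p = 1.14e-05), and it was higher by 0.42 with A74 (edgeR adjusted p = 0.000856).

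Apoe encodes apolipoprotein E, the lipid carrier made in the retina by Müller glia and, in disease, by microglia. It was at 361, 417 and 387 CPM in A74 libraries, 858, 760 and 598 CPM in light damage libraries, and 401, 435 and 342 CPM in controls. The light damage libraries were far above all others, and the A74 and control ranges overlapped. Apoe had the largest change of the 10 genes, a 1.88-fold rise (log2 0.91, SE 0.131, edgeR adjusted p = 0.000862), and fell by 0.93 with A74 (edgeR adjusted p = 0.00146). Against control, A74 with light damage gave -0.02 with an interval from -0.31 to 0.27. Within sets, the log2 fold change with A74 relative to light damage was -1.16 in libraries with more anterior RNA and -0.57 in the other set.

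Markers of microglia and macrophages moved with Apoe. They summed to 86.1 to 117 CPM with A74, 215 to 350 CPM in light damage and 79.4 to 88.3 CPM in control, and 11 of 13 rose in light damage and 12 of 13 fell with A74 relative to light damage, with none at 0 in all libraries. Their part in the Apoe values was not tested. The median log2 fold change of these markers in light damage was 2.04, against 0.91 for Apoe.

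Abca8a, an ATP-binding cassette transporter gene of the lipid-exporting subfamily, was the only member called higher with A74 than in light damage. It had 253, 286 and 263 CPM in A74 libraries, 224, 231 and 252 CPM in light damage libraries, and 243, 248 and 245 CPM in controls. The closest A74 and light damage libraries, at 253 and 252 CPM, nearly touched. The log2 fold change was 0.19 (SE 0.062, edgeR adjusted p = 0.0477). This call was lost without any of 7 of the 9 libraries (controls 1, 2 and 3, light damage 1 and 2, A74 2 and 3), with log2 fold changes of 0.13 to 0.20 and edgeR adjusted p of 0.0554 to 0.244. It was also lost in a fit of these 2 groups alone (edgeR adjusted p = 0.0912). In light damage against control it was -0.06, with an interval from -0.19 to 0.07 (edgeR adjusted p = 0.511). With Y-linked counts as a term the log2 fold change with A74 relative to light damage was 0.14 (edgeR adjusted p = 0.307), and with inner neuron scaling 0.36.

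Of 12 other lipid transport genes, 2 rose and 3 fell in light damage, and 3 rose and 4 fell with A74 relative to light damage. Clu, which encodes the lipid-carrying chaperone clusterin, had 500 ± 43.1 CPM with A74, 1020 ± 204 CPM in light damage and 470 ± 26.2 CPM in control (SD, n = 3 each). It rose by 1.11 (SE 0.13, edgeR adjusted p = 0.000177). Abca1, which loads lipid onto apolipoprotein E, rose by 0.57 (edgeR adjusted p = 9.5e-05) and fell by 0.52 with A74 (edgeR adjusted p = 0.000377). The lipoprotein receptor genes Scarb1 and Vldlr had log2 fold changes of -0.47 and -0.59 in light damage (edgeR adjusted p = 7.72e-05 and 0.000128).

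Dkk3 encodes a secreted glycoprotein of the Dickkopf family, whose other members block Wnt signalling. It was at 831, 846 and 779 CPM in A74 libraries, 1220, 1160 and 1030 CPM in light damage libraries, and 867, 873 and 788 CPM in controls. Light damage libraries stood above all others. Dkk3 rose 1.35-fold (log2 0.43, SE 0.079, edgeR adjusted p = 0.000917) and fell by 0.47 with A74 (edgeR adjusted p = 0.000902), or by 0.30 with libraries scaled on inner retinal neuron markers. Of 10 other Wnt modulator genes 8 were tested, and Kremen1, a Dickkopf receptor gene, rose by 0.33 (edgeR adjusted p = 0.00316) and fell by 0.43 with A74 (edgeR adjusted p = 0.000861). Frzb, a secreted Frizzled-related protein gene, rose by 0.38 in light damage (edgeR adjusted p = 0.00471). No other gene of that list was called in either comparison, and Dkk1 had 0 counts in every library.

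Sox9, the transcription factor of glial identity, was the least abundant by count, with 372 to 935 counts per library. It had 26.3, 34.4 and 26.2 CPM in A74 libraries, 55.3, 48.6 and 39.8 CPM in light damage libraries, and 29.9, 31.8 and 25.1 CPM in controls. The light damage libraries were above all others. Sox9 rose 1.66-fold (log2 0.73, SE 0.145, edgeR adjusted p = 0.00494) and fell by 0.72 with A74 (edgeR adjusted p = 0.00743). Within sets, the log2 fold change with A74 was -0.98 in libraries with more anterior RNA and -0.39 in the other set, where it was not called with a single light damage library (edgeR adjusted p = 0.124). The difference between sets was -0.59 and did not pass the test (SE 0.19, edgeR adjusted p = 0.158).

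Glial transcription factors were the list in which most genes went the way of Sox9. Of 12 tested, 8 rose and 0 fell in light damage, with a median log2 fold change of 0.40 against 0.01 over all genes, and 0 rose and 8 fell with A74 relative to light damage. Sox8, a relative of Sox9, was at 27.8 ± 1.79 CPM with A74, 38.1 ± 3.35 CPM in light damage and 25.6 ± 1.17 CPM in control (SD, n = 3 each), and rose by 0.57 (edgeR adjusted p = 0.000189). Sox2, which keeps Müller cells quiescent, rose by 0.60 (edgeR adjusted p = 0.000609), and Lhx2, a regulator of Müller development, by 0.43 (edgeR adjusted p = 0.00507). With A74, Nfix, a factor of late glial development, fell by 0.54 (edgeR adjusted p = 0.0011) and Id3, a BMP target, by 0.78 (edgeR adjusted p = 0.00486). Several of these factors are also made by inner retinal neurons or astrocytes. Over all 6 lists of related genes, 22 of 65 tested rose and 11 fell in light damage, and 10 rose and 23 fell with A74 relative to light damage. Of all genes tested, 13.0% were called higher and 12.8% lower in light damage. With A74 relative to light damage these shares were 9.07% and 9.19%.

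**Figure D3:**
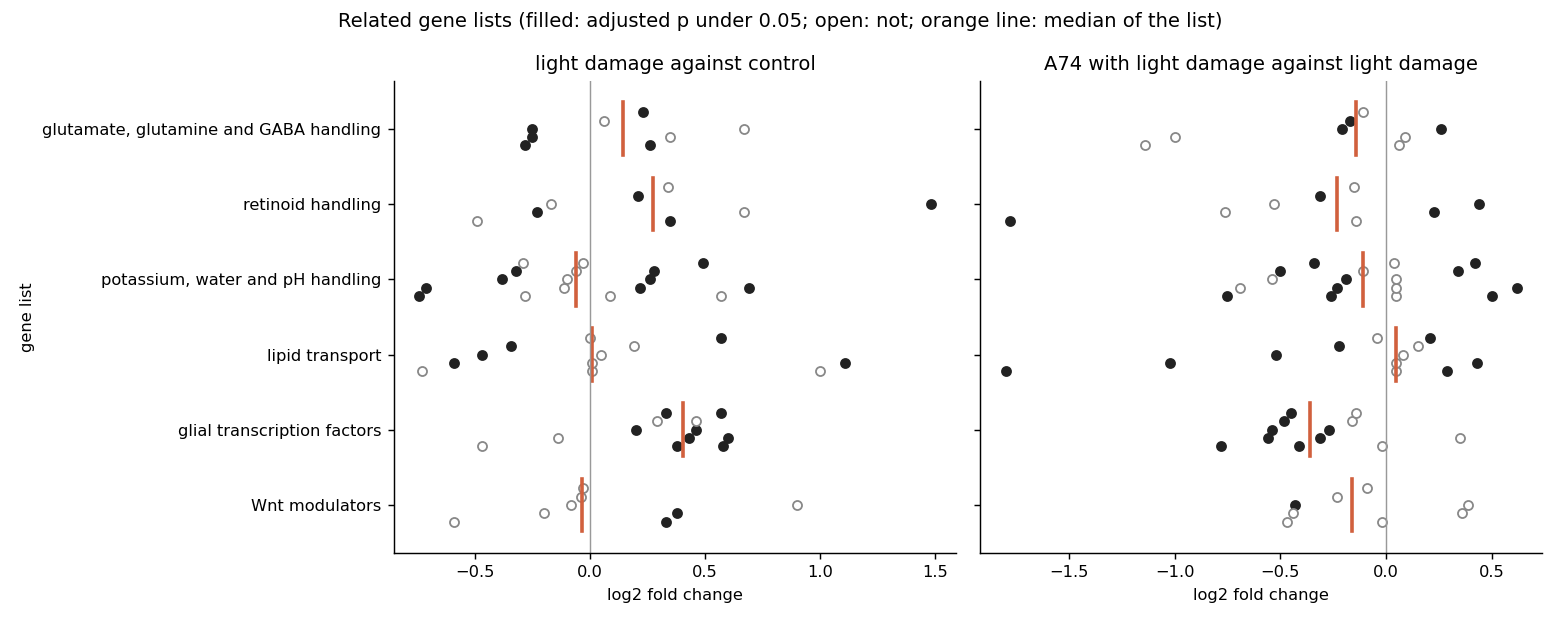
Log2 fold change on the x axis for each tested gene of the 6 related lists, with light damage against control on the left and A74 with light damage against light damage on the right; filled points passed an adjusted p of 0.05 and the line is the median of the list. Glial transcription factors have a median of 0.40 on the left and -0.36 on the right, while potassium, water and pH genes spread to both sides of 0.

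A74 with light damage was set against control to ask how far the members differed from control. No group received A74 without light damage. An effect of A74 on these genes by itself therefore cannot be told apart from a smaller response to light. No member was called by edgeR, none had an unadjusted p under 0.05, and DESeq2 called none either. The smallest edgeR adjusted p was 0.349, and 0.892% of all genes were called, 0.591% higher and 0.301% lower, or between 0.119% without A74 replicate 2 and 2.34% without light damage replicate 3. Log2 fold changes of the members ran from -0.16 (Aqp4) to 0.12 (Abca8a). Rlbp1 and Car2 were at 0.05, with intervals from -0.10 to 0.19 and from -0.09 to 0.20. Glul and Dkk3 were at -0.04, with intervals from -0.26 to 0.17 and from -0.21 to 0.12. The 95% intervals reached at most 0.33 above (Sox9) and -0.42 below (Aqp4), and differences within the intervals are not excluded. Car14 and Aqp4 had every A74 library below every control library, and Abca8a had every A74 library above every control library, while 22.8% of all genes had groups without overlap, 11.8% higher and 11.0% lower. All comparisons with A74 share libraries with those of light damage, so their values stand side by side and are not independent of each other. Light damage against control and A74 with light damage against light damage use the same 3 light damage libraries.

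**Figure D4:**
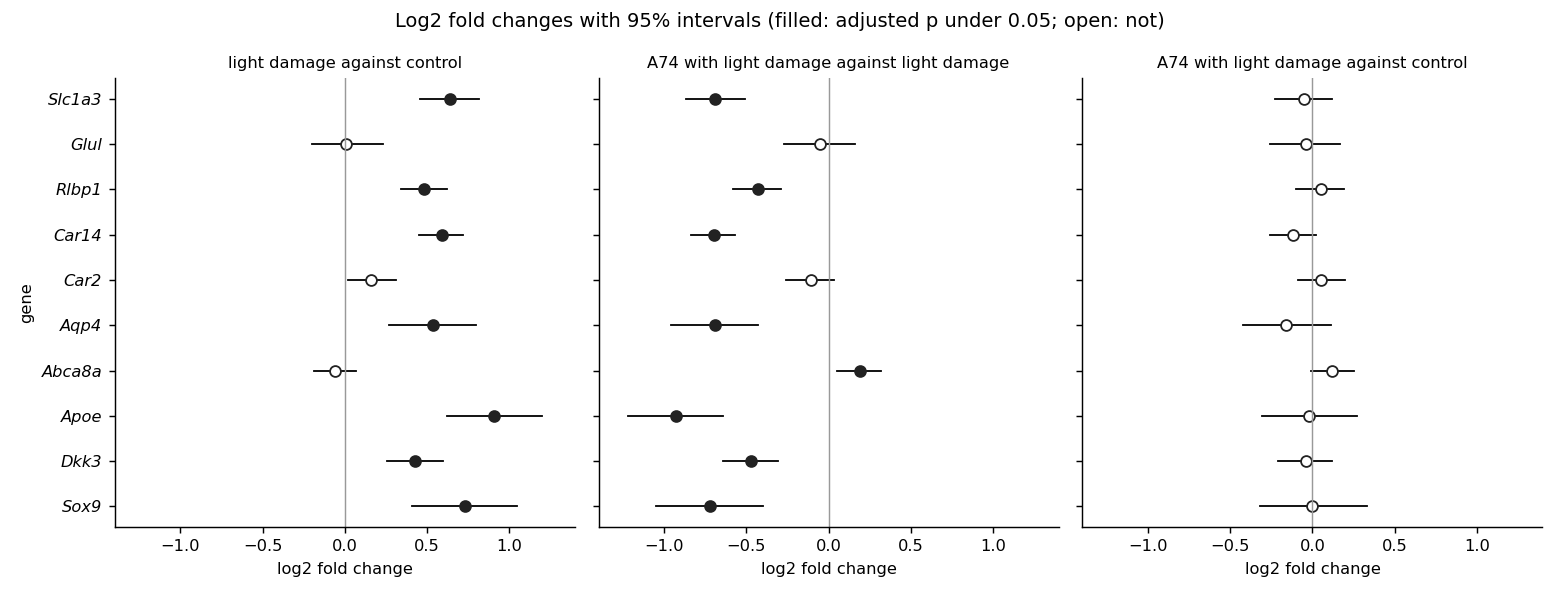
Log2 fold change with its 95% interval on the x axis for each gene in the 3 comparisons; filled points passed an adjusted p of 0.05. Slc1a3, Rlbp1, Car14, Aqp4, Apoe, Dkk3 and Sox9 lie right of 0 in light damage against control and left of 0 with A74 relative to light damage, and all 10 genes span 0 in A74 with light damage against control.

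Within the light damage group, replicate 1 was the highest for 7 of 10 genes and replicate 3 the lowest for 8 of 10. Glul and Abca8a were instead lowest in replicate 1. Rod markers summed to 27500, 35300 and 41100 CPM in replicates 1, 2 and 3, lowest in replicate 1, and microglia markers to 350, 287 and 215 CPM, highest in replicate 1. Replicate 3 also lacked Y-linked counts and was low in anterior tissue genes, and the part of these in its lower values was not tested. In the A74 group, replicate 3 was the lowest for 7 of 10 genes, and in the control group replicate 3 was the lowest for 6 of 10.

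As deviations from the group means over the 9 libraries, the 7 members that rose varied together, with Pearson correlations of 0.598 to 0.923 over 21 pairs, highest for Slc1a3 with Aqp4. Car2, which was not called, also varied with them, at 0.344 to 0.776, so this is not particular to the called members. Abca8a ran from -0.753 with Aqp4 to -0.0212 with Sox9, and Glul was between -0.56 and 0.113. Points of a library share its depth and scaling, so these values describe the libraries only. The genes outside the members most like each one in log2 CPM over the 9 libraries, among 10252 protein-coding genes that averaged 10 CPM or more, were Msn (Pearson correlation 0.994) and Gatm (0.991) for Slc1a3, Tsc22d4 (0.991) and Mpeg1 (0.99) for Rlbp1, and Vamp2 (0.954) and Eno2 (0.924) for Glul. They were Gpm6a and Cntn1 (0.991 each) for Car14, Pitpna (0.977) and Rpl13 (0.963) for Car2, and Tulp3 (0.988) and Magi3 (0.983) for Aqp4. For Apoe they were Axl and Tmsb4x (0.993 each), for Dkk3 Prdx6 (0.994) and Cobl (0.993), for Sox9 Gyg (0.994) and Prdx1 (0.985), and for Abca8a Adnp2 (0.955) and Tox4 (0.951). They include the difference between light damage and the other libraries.

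Scaling could alter all members together, since rod transcripts made up a smaller share of the light damage libraries than of A74 or control libraries. With libraries scaled on the summed counts of bipolar, amacrine and horizontal markers, the median of all genes moved to -0.08 in light damage against control and to 0.17 in A74 with light damage against light damage. The share of called genes that were higher was 29.3% and 85.8% under this scaling, against 50.5% and 49.7% under TMM. The same numbers of members were called, 7 higher in light damage, and 7 lower and 1 higher with A74, and the members' median log2 fold changes were 0.42 and -0.41. Of the 8 bipolar markers, 4 rose in light damage and 5 fell with A74 relative to light damage. With the presence of Y-linked counts as a term, 8 members were called higher in light damage, Car2 among them, and 7 lower with A74. In A74 with light damage against light damage, 4.31% of all genes were then called, against 18.3% without the term. The members' median log2 fold change there was -0.42, against -0.58. All 3 A74 libraries lacked Y-linked counts, and light damage replicate 3 was the only light damage library without them. The term and A74 thus overlap in part.

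**Figure D5:**
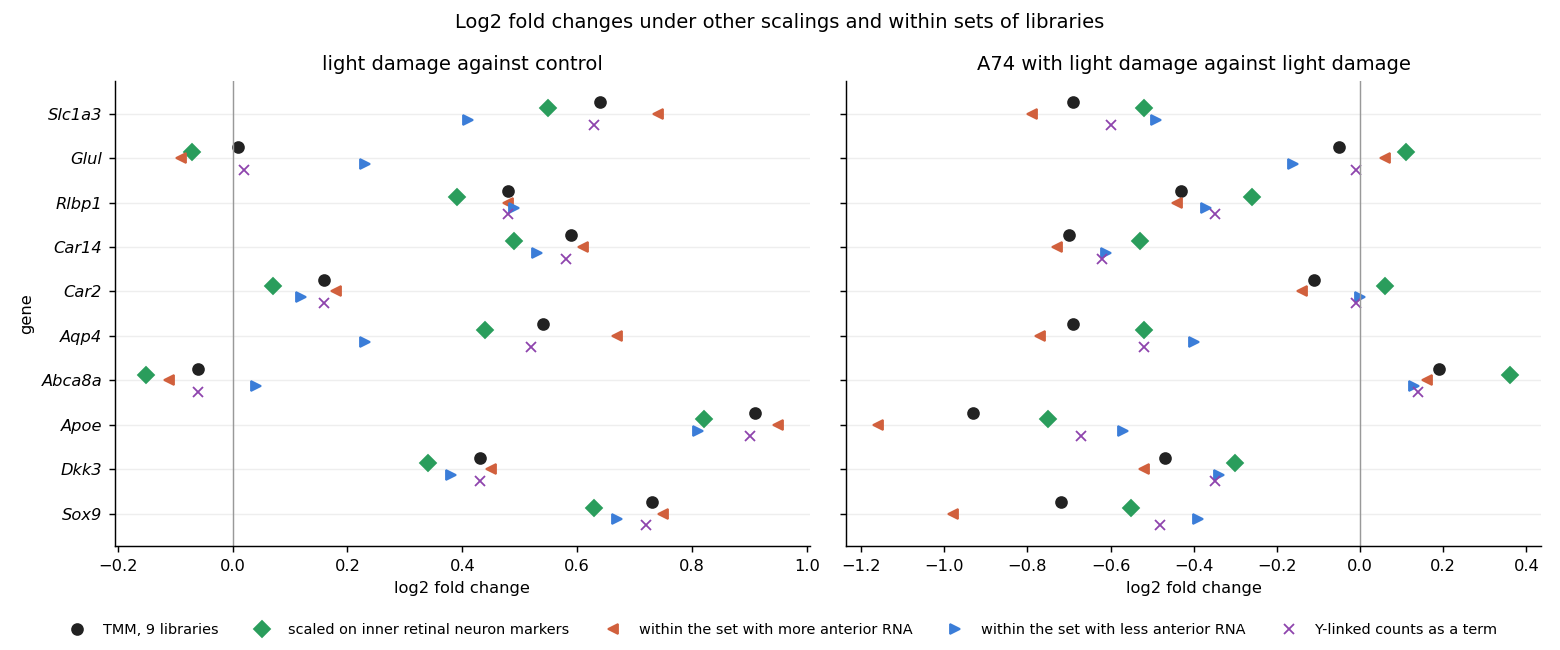
Log2 fold change on the x axis for each gene under TMM with all 9 libraries, under scaling on inner retinal neuron markers, within each set of libraries split by anterior tissue RNA, and with Y-linked counts as a term. The Apoe change with A74 relative to light damage spans -1.16 to -0.57, while Rlbp1 in light damage lies between 0.39 and 0.49.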

How the data were processed

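Total RNA of mouse retina was sequenced in 9 libraries, 3 per group, grouped by sample titles. The authors deposited whole-number read counts per gene, not normalised; RSEM 1.3.1, Bowtie2, DESeq2 1.4.5 and GRCm39 are named, without roles, per the submitters' processing notes. The annotation release and any use of strand are not stated in those notes, and RSEM can split reads between near-identical genes. Genes were kept by filterByExpr (minimum count 10), leaving 17272, scaled by TMM factors, and analysed in R 4.3.3 by the robust quasi-likelihood test of edgeR 4.0.16 in 1 fit of all 9 libraries, and called at an adjusted p under 0.05. SE is the log2 fold change over the square root of F. Intervals are 95% and unadjusted. Levels are CPM from TMM library sizes, and a prior count of 2 entered log2 CPM. DESeq2 1.42.0 was an alternative. Tests were checked on simulated data. The members and all gene lists were chosen with earlier results of these data known. All members were named; of each related list, up to 3 genes per comparison with the smallest adjusted p, and the 2 genes most like each member. Some genes that this rule names are not reported here. Values of marker genes, and of Slc38a3 in light damage, were added after they had been seen. The labels state no pairing, so same-numbered libraries of different groups were not treated as paired. Their deviations nevertheless correlated over 0.1 in 6 of 9 pairs, with a range from -0.0925 to 0.311. A replicate block was therefore fitted as an alternative. Replicates differed by more than sampling noise, with a chi-square of 2.49 or more per degree of freedom. Alternatives were other scalings, no count filter, 2 groups alone, terms for replicate, anterior tissue set or Y-linked counts, values within sets, a 2-fold minimum, and leaving out libraries.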

Additional observations from a re-analysis of the deposited data

Results flagged for a closer look

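The fall of Apoe with A74 relative to light damage was larger in one of the 2 sets of libraries split by anterior tissue RNA. It was -1.16 on the log2 scale in the set with more of that RNA, A74 replicate 1 against light damage replicates 1 and 2, and -0.57 in the other set, A74 replicates 2 and 3 against light damage replicate 3. The difference was -0.59 (SE 0.12, edgeR adjusted p = 0.0139), in a fit that pools the spread over all groups and sets. A74 replicate 1 and light damage replicate 3 are each the lone library of their arm and are assumed to vary like the others, so the difference rests on single libraries. The sets were defined from the data and also differ in Y-linked counts among light damage libraries. Rod markers summed to 27500 and 35300 CPM in light damage replicates 1 and 2 and to 41100 CPM in replicate 3. Microglia and macrophage markers summed to 350 and 287 CPM in replicates 1 and 2 and to 215 CPM in replicate 3. In A74 replicates 1, 2 and 3 these markers summed to 86.1, 117 and 97.4 CPM, and rod markers to 51400, 48100 and 48800 CPM. Apoe itself was at 401 and 435 CPM in control replicates 1 and 2 and at 342 CPM in control replicate 3. Its difference between the sets was 0.15 in light damage against control and -0.45 in A74 with light damage against control. The part of any of these differences was not tested.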

How the results depend on the processing

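With a 2-fold minimum, 0 members were called in either comparison with light damage. In fits without 1 library, 7 to 8 members were called in light damage against control, 7 to 8 in A74 with light damage against light damage, and 0 in A74 with light damage against control. With the replicate block, members called were 7, 8 and 0, and it changed no member's call; 12 of 18 best matches were between same-numbered libraries. Signs turned only for values that were not called. Light damage against control gave for Glul -0.07 scaled on inner retinal neuron markers, -0.09 within the set with more anterior RNA, -0.02 without light damage replicate 3 and A74 replicate 1, and -0.06 to 0.11 without single libraries, and for Abca8a 0.04 within the set with less. A74 with light damage against light damage gave 0.11 for Glul and 0.06 for Car2 under inner neuron scaling, 0.06 for Glul within the set with more, and -0.15 to 0.01 for Glul without single libraries. A74 with light damage against control gave, under inner neuron scaling, Slc1a3 0.03, Glul 0.04, Dkk3 0.04 and Apoe 0.07; with the anterior set as a term, Dkk3 0.00 and Apoe 0.06; with the Y-linked term, Slc1a3 0.03, Glul 0.01, Aqp4 0.00, Dkk3 0.08 and Apoe 0.23. Within the set with more anterior RNA Sox9 was -0.23, and within the set with less Glul was 0.07, Dkk3 0.04 and Apoe 0.23. Without light damage replicate 3 and A74 replicate 1 Apoe was 0.03. Without single libraries Glul ran from -0.11 to 0.02, Apoe from -0.10 to 0.06 and Sox9 from -0.13 to 0.08. The cause was not tested.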
